A study of Homo sapiens with 6 samples.

Results

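The genes described here are 37 human genes of homologous recombination and of the Fanconi anaemia pathway, taken by name from the 62700 genes of the deposited gene table. All 37 were matched by symbol and Ensembl identifier, and all 37 passed the filter on low values. They were chosen for their function, but earlier results of these data were known when they were chosen.

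Homologous recombination repairs a broken chromosome by copying the sister chromatid. The ends are sensed and resected by the MRE11 complex, CtIP and EXO1, after which BRCA1, PALB2 and BRCA2 act on the single strand together with RAD51B, RAD51C, RAD51D, XRCC2 and XRCC3. The strand then invades the intact duplex, FIGNL1 acts at a later step, and the joined molecules are undone by BLM or cut on the SLX4 scaffold. The Fanconi pathway acts on crosslinks between the strands: a core complex attaches ubiquitin to FANCD2 and FANCI, and this opens the way for incision and for recombination. Germ cells depend on the same machinery for meiotic recombination, and inherited loss of many of these genes causes cancer predisposition or infertility.

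RNA with poly(A) tails was sequenced from TCam-2, an established human line from a testicular seminoma. The groups, of 2 libraries each, were untransduced cells (WT), cells transduced to express GFP with a FLAG tag (GFP), and cells transduced to express RBMXL3 with the same tag (RBMXL3). RBMXL3 is a retrogene relative of the RNA-binding protein gene RBMX, and GFP and WT served as the 2 negative controls. The vector, its promoter, and whether each transduced line was a pool or a clone are not given in the sources used here. The labels do not say that the libraries of a group came from separate cultures, so the p-values below measure only the spread between these libraries, which may be technical.

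The RBMXL3 gene itself had 108 and 72.7 normalised reads in the RBMXL3 libraries and 0 in each of the 4 controls. With an expected count of 3 reads or fewer, 0 could also be seen. Depth moved with the groups, from 28604436 to 29318007 recovered reads for WT over 23080795 to 26776703 for GFP to 17685680 to 21023355 for RBMXL3, and its part in the results was not tested. All 10 seminoma markers were detected in every library, with sums of 124090 to 141230 normalised reads in WT, 127040 to 138090 in GFP and 129100 to 130330 in RBMXL3. Of these 10, 0 were called higher and 2 lower against GFP, and 2 higher and 3 lower against WT. The 2 called against both controls, picked out after their values were seen, were KIT (-0.39 against GFP and -0.80 against WT) and LIN28A (-0.37 and -0.33), while POU5F1 rose by 0.46 against WT. The 5 leukocyte markers summed to 30.5 to 35.2, 37.9 to 44.5 and 74.7 to 76.99 in WT, GFP and RBMXL3, with CD3E at 0 throughout, and the 7 somatic testis markers to 102 to 154, 108 to 159 and 182 to 212, with CYP17A1 at 0. The 6 fibroblast markers summed to 8506 to 9705, 11986 to 13445 and 12664 to 13489 in the same order, mostly COL1A2, while DCN was at 1.7 or below and PDGFRA at 17.0 or below. Of the 4 fibroblast markers tested, limma called 2 higher in RBMXL3 against GFP, 4 against WT, and 4 in GFP against WT. The 2 called against both controls, picked out after their values were seen, were LUM (log2 change 1.33 against GFP and 2.22 against WT) and COL3A1 (1.15 and 1.86). The part of these markers in the results below was not tested.

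The question put to the data was how the transcript levels of the repair genes differed in cells carrying RBMXL3 from those in each control. Values are normalised reads, which are reads divided by one size factor per library. A change is a difference of log2(value + 1) after division by one common factor, with its standard error (SE). A gene counts as called where limma's p, adjusted after Benjamini and Hochberg over 14292 genes, is under 0.05.

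RAD51C, C1orf112 and EXO1 were lower in RBMXL3 cells than in both controls, at 0.645 to 0.763 times the control means, and no repair gene was called higher against both. Against GFP, 6 of the 37 genes were called (16.2%), 3 higher (FANCF, ATM and SLX4) and 3 lower, where 20.9% of all tested genes were called, 10.5% higher and 10.4% lower. Against WT, 10 of 37 were called (27.0%), 2 higher (FANCE and FANCG) and 8 lower (C1orf112, EXO1, RAD51C, RBBP8, NBN, FANCD2, FIGNL1 and FANCI), where 29.9% of all tested genes were called, 14.6% higher and 15.3% lower. The shares of called repair genes were thus slightly below those of all genes in both comparisons, which share the RBMXL3 libraries.

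For both controls at once, 3 of 37 were called in the same direction, all lower, where 6.86% of all tested genes were called lower, 6.88% higher and 13.7% in either direction. Both RBMXL3 libraries lay outside all 4 controls for 18 of 37 genes, 8 above and 10 below, where this held for 46.1% of all tested genes, 22.5% above and 23.6% below. The median change of the 37 genes was 0.04 against GFP and -0.10 against WT, and over all genes it was 0.00 and -0.01. Between the controls, GFP against WT, 1 of 37 was called (BRCA2, lower), where 3.67% of all tested genes were called, 1.76% higher and 1.91% lower.

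Counts of calls rested on single libraries, and those over all tested genes also fell without either RBMXL3 library. Without RBMXL3 replicate 1 the count was 1 against GFP, 4 against WT and 1 against both, and without RBMXL3 replicate 2 limma called 0, 2 and 0, with 5 genes at an unadjusted p under 0.05 against GFP. Against GFP and against WT, the counts also fell without WT replicate 1 and rose without GFP replicate 1. Those over all tested genes moved the same way. In bulk RNA, fewer cells of one kind and less RNA per cell cannot be told apart.

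**Figure D1:**
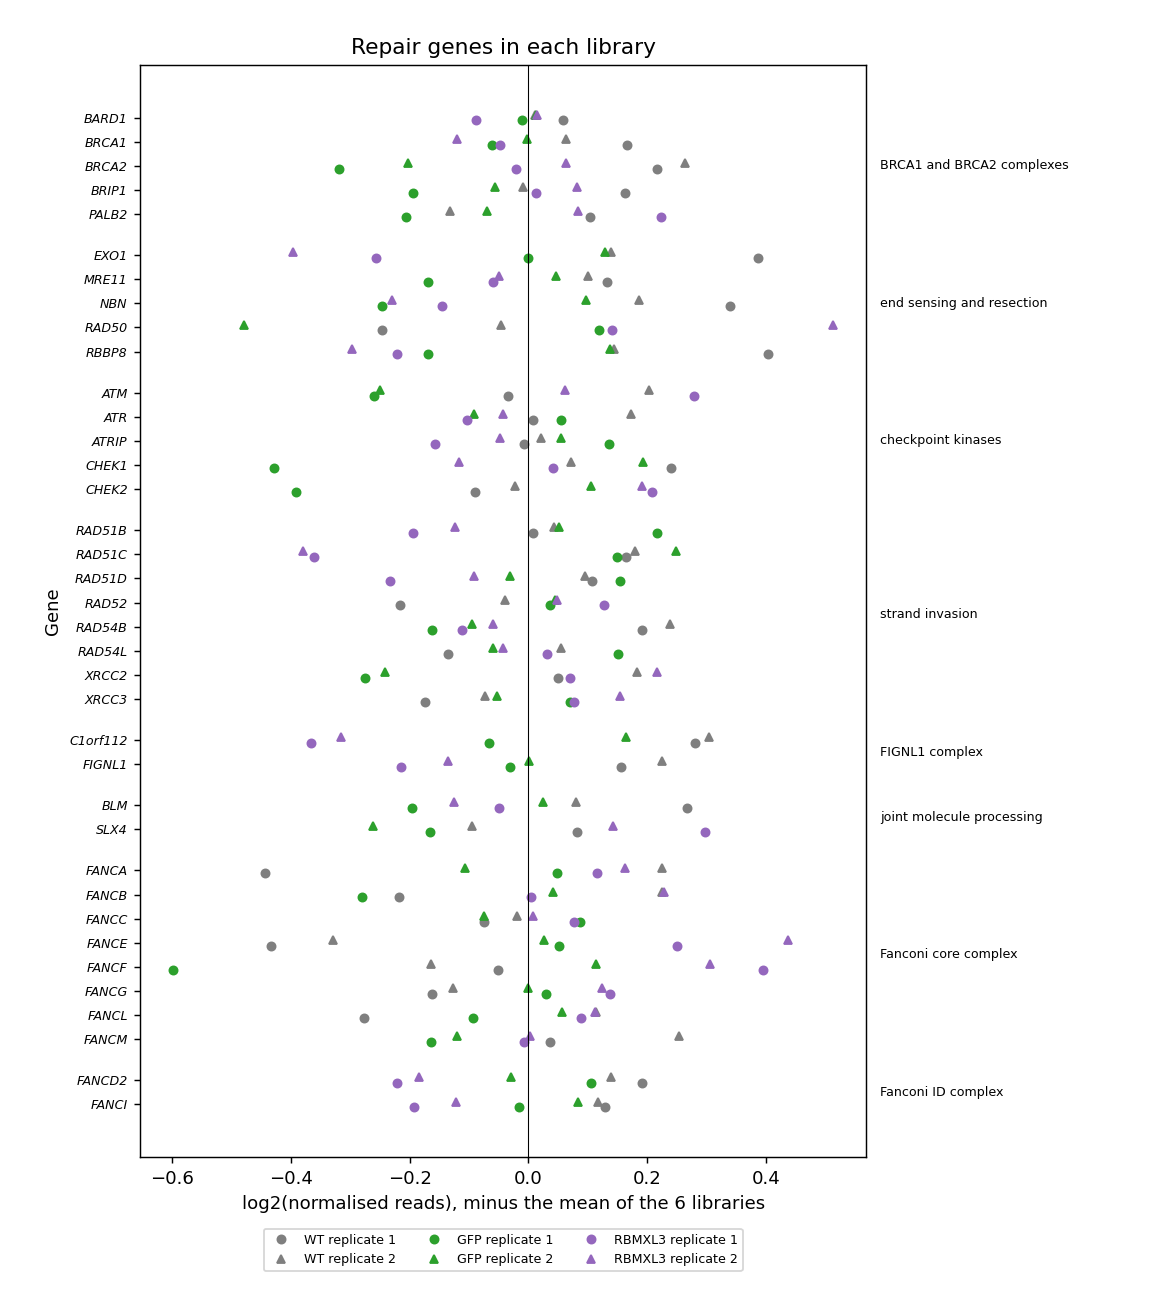
Each of the 37 repair genes (rows, grouped by role) in each of the 6 libraries. The x axis is log2 of the normalised reads minus the gene's mean over the 6 libraries, circles are replicate 1 and triangles replicate 2. RAD51C, C1orf112 and EXO1 have both RBMXL3 libraries to the left of all 4 controls, and FANCE and FANCF have both to the right.

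The mediators around BRCA1 and BRCA2 prepare resected ends for strand invasion. None of these 5 genes was called in RBMXL3 cells by limma, edgeR or DESeq2 against either control. In limma, 2 had an unadjusted p under 0.05 against GFP and 0 against WT. Over all tested genes, limma called 20.9% against GFP and 29.9% against WT. Changes ran from -0.05 to 0.28 against GFP and from -0.21 to 0.16 against WT. For none of the 5 did both RBMXL3 libraries lie outside the controls, where this held for 46.1% of all tested genes.

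BRCA2, a mediator of strand invasion (chr13:32315474-32400266, plus strand; coordinates are of GENCODE 29 on GRCh38), was at 533 and 550 normalised reads in WT cells, 368 and 398 in GFP cells and 452 and 479 in RBMXL3 cells. The RBMXL3 libraries thus lay between the controls, above both GFP libraries and below both WT libraries. GFP was lower than WT by 0.48 on the log2 scale (log2 change -0.48, SE 0.11, limma adjusted p = 0.0431), and RBMXL3 differed by 0.27 from GFP (limma adjusted p = 0.118) and by -0.21 from WT (limma adjusted p = 0.187). The GFP call was lost when WT replicate 1, WT replicate 2 or either RBMXL3 library was left out. The change was -0.42 without GFP replicate 1 and -0.53 without GFP replicate 2. In summed transcript TPM the difference was 0.0014 (limma adjusted p = 0.999).

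BRCA1, the ubiquitin ligase that counters the end joining pathway, was at 1441 and 1342 normalised reads in WT cells, 1231 and 1282 in GFP cells and 1242 and 1182 in RBMXL3 cells, which overlapped GFP. One BRCA1 transcript, however, was listed only in the controls. BRCA1-226 is an annotated coding transcript of 11 exons and 1282 bases, of which 1062 are coding, and its own junction spans chr17:43074521-43125271 on the minus strand. This junction passes over 13 exons, with 4566 bases, of the longest coding transcript, BRCA1-210, which has 24 exons. The last 15 bases before the junction (lower case) and the first 15 after it (capitals) are shown because this join marks the transcript.
BRCA1-226: ctgctctgggtaaagGTCATCCCCTTCTAA

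Its TPM, the transcript's abundance per length scaled to the library, was 3.29 and 3.26 in WT and 3.48 and 3.97 in GFP, and it was listed at 0 in both RBMXL3 libraries. As a share of the TPM of all matched BRCA1 transcripts this was 23.2% and 20.7% in WT, 26.1% and 29.3% in GFP, and 0% in RBMXL3, so the groups did not overlap. The share differed by -27.7 percentage points from GFP (limma on the arcsine square root of the share, adjusted p = 0.0223) and by -22.0 from WT (limma adjusted p = 0.0252). It was the only repair gene transcript called against both controls, where 0.507% of 36068 tested transcripts were. Tested as abundance on log2(TPM + 1), BRCA1-226 was again the only repair gene transcript called, both against GFP (limma adjusted p = 0.0348, with 1.24% of all tested transcripts called) and against WT (limma adjusted p = 0.0385, with 1.37%). The call on shares was lost when any 1 of the 6 libraries was left out (limma adjusted p from 0.0541 to 0.278), and no transcript of any gene was called then.

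A TPM is salmon's estimate of how reads divide among transcripts that share most of their exons. Reads over the junction itself were not analysed here. For BRCA1 the TPM of the matched transcripts, multiplied by their length and divided by the gene's reads, was 0.298 times that of the median repair gene, so the shares are of an incomplete set of transcripts. BARD1, the partner of BRCA1, PALB2, which bridges BRCA1 and BRCA2, and the helicase BRIP1 changed by -0.04, 0.28 and 0.17 against GFP and by -0.07, 0.16 and -0.03 against WT.

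Of the 5 genes that sense and resect ends, 1 was called against GFP (lower) and 3 against WT (all lower). Over all tested genes, 20.9% and 29.9% were called. EXO1, the exonuclease of long-range resection (chr1:241847967-241895148, plus strand), was at 1723 and 1452 normalised reads in WT cells, 1317 and 1441 in GFP cells and 1103 and 1001 in RBMXL3 cells. Both RBMXL3 libraries were below all controls, although the WT libraries also differed from each other. The means were 1588 ± 191, 1379 ± 87.8 and 1052 ± 72.5 (SD, n = 2). EXO1 fell by 0.38 against GFP (log2 change -0.38, SE 0.11, limma adjusted p = 0.0308) and by 0.58 against WT (log2 change -0.58, SE 0.11, limma adjusted p = 0.0027).

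The EXO1 call against GFP was lost without GFP replicate 2 (limma adjusted p = 0.0503), RBMXL3 replicate 1 (0.114) or RBMXL3 replicate 2 (0.295), and the call against WT without WT replicate 1 (0.0543) or RBMXL3 replicate 2 (0.0553). In summed TPM, EXO1 stood at 35.8 and 30.5 in WT cells, 25.3 and 27.7 in GFP cells and 25.7 and 28.1 in RBMXL3 cells, so the RBMXL3 and GFP libraries overlapped there.

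RBBP8, which encodes the resection factor CtIP, was at 1030 and 861 normalised reads in WT cells, 693 and 857 in GFP cells and 668 and 634 in RBMXL3 cells, below all controls in both libraries. It fell by 0.52 against WT (log2 change -0.52, limma adjusted p = 0.0102) and differed by -0.24 from GFP (limma adjusted p = 0.212). NBN, the MRE11 complex subunit that recruits ATM, was at 3206 and 2880 in WT cells, 2134 and 2710 in GFP cells and 2290 and 2159 in RBMXL3 cells, within the GFP range. It fell by 0.45 against WT (log2 change -0.45, limma adjusted p = 0.0142) and differed by -0.11 from GFP (limma adjusted p = 0.539). Both calls were lost without WT replicate 1, RBMXL3 replicate 1 or RBMXL3 replicate 2, with limma adjusted p of 0.131, 0.0516 and 0.0945 for RBBP8 and 0.144, 0.0676 and 0.137 for NBN. MRE11, the nuclease of the complex, was at 31.1 TPM on average and was the most abundant repair gene per length that was not called, with a change of 0.01 against GFP and -0.17 against WT.

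RAD50, the ATPase of the complex, gave different answers in the deposited tables. In the gene table it had only 42.3 and 48.7 normalised reads in WT cells, 54.5 and 36.0 in GFP cells and 55.4 and 71.6 in RBMXL3 cells, with the RBMXL3 libraries highest. In the transcript table it was abundant, at 27.6 and 29.5 TPM in WT cells, 30.8 and 24.7 in GFP cells, and 18.1 and 19.3 in RBMXL3 cells, with the RBMXL3 libraries lowest and the summed TPM called lower against WT (log2 change -0.59, limma adjusted p = 0.0357). In GENCODE 29, 79.7% of RAD50's exon length is shared on the same strand with AC116366.3, and its TPM times length per read was 34.0 times that of the median repair gene, so the read value of RAD50 is uncertain.

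By salmon's estimates, the RAD50 difference in TPM was found in a short transcript, RAD50-206. RAD50-206 has 5 exons and 564 bases, an annotated start that is incomplete, and 1 junction found in no other RAD50 transcript, at chr5:132640805-132643005 on the plus strand. The 30 bases before this junction (lower case) and after it (capitals) are given.
RAD50-206: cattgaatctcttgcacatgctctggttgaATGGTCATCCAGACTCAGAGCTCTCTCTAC

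RAD50-206 was at 7.82 and 13.0 TPM in WT cells, 14.2 and 7.35 in GFP cells and 0.635 and 1.21 in RBMXL3 cells. Its share of RAD50's TPM was 28.3% and 44.1% in WT cells, 45.9% and 29.7% in GFP cells, and 3.50% and 6.28% in RBMXL3 cells. The groups did not overlap, yet the control libraries varied widely and the share did not pass the test against GFP (limma adjusted p = 0.147) or WT (limma adjusted p = 0.170), although limma's diffSplice called it against both (adjusted p = 0.000212 and 0.000199). Its abundance on log2(TPM + 1) did not pass either (limma adjusted p = 0.069 against GFP and 0.066 against WT). Another RAD50 transcript, RAD50-201, was also called by diffSplice against both controls. Of the 36068 tested transcripts, diffSplice called 1606 against GFP and 1517 against WT. The other RAD50 transcripts together, summed after the values were seen, were at 19.8 and 16.5 TPM in WT cells, 16.7 and 17.4 in GFP cells, and 17.5 and 18.1 in RBMXL3 cells, so these overlapped. RAD50-206 was named for its change in share, so this remainder is no test of where the difference lay.

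The checkpoint kinases signal the damage that the repair genes act on. Of the 5 genes, 1 was called against GFP and 0 against WT by limma, edgeR or DESeq2, with 0 at an unadjusted p under 0.05 against WT. Over all tested genes, limma called 20.9% against GFP and 29.9% against WT. ATM, the kinase activated at double-strand breaks, was at 525 and 619 normalised reads in WT cells, 449 and 452 in GFP cells and 653 and 561 in RBMXL3 cells. It rose by 0.41 against GFP (SE 0.12, limma adjusted p = 0.0356), while its RBMXL3 and WT libraries overlapped (0.08, limma adjusted p = 0.643). The call was lost without RBMXL3 replicate 1 (limma adjusted p = 0.341) or replicate 2 (0.104).

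ATR and its partner ATRIP, which sense single-stranded DNA, and the effector kinases CHEK1 and CHEK2 changed by -0.18 to 0.32 against GFP and by -0.19 to 0.24 against WT, with none called. For CHEK2 both RBMXL3 libraries, at 418 and 414 normalised reads, were above all controls, and for ATRIP both, at 259 and 279, were below them. ATRIP shares 27.9% of its exon length with TREX1 on the same strand. A transcript of ATRIP picked after its values were seen, ATRIP-208, was at 1.99 and 3.13 TPM in WT and listed at 0 in all GFP and RBMXL3 libraries, so that its share, at 25.03% and 32.7% in WT, was called lower in RBMXL3 against WT (limma adjusted p = 0.0379). GFP against WT gave the same difference, -28.9 percentage points, without passing the test (limma adjusted p = 0.136).

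RAD51C stood out among the 8 genes of strand invasion beside BRCA2, of which it alone was called, against both controls. RAD51C (chr17:58692573-58735611, plus strand), a subunit of both paralog complexes that promote strand invasion, was at 1120 and 1132 normalised reads in WT cells, 1108 and 1188 in GFP cells and 778 and 768 in RBMXL3 cells. All 4 controls lay close together and both RBMXL3 libraries far below them. The means were 1126 ± 8.20, 1148 ± 56.4 and 773 ± 6.97 (SD, n = 2). RAD51C fell by 0.56 against GFP (log2 change -0.56, SE 0.10, limma adjusted p = 0.0029) and by 0.53 against WT (log2 change -0.53, SE 0.10, limma adjusted p = 0.0023), and GFP and WT differed by 0.03 (limma adjusted p = 0.902). The call against GFP was lost without RBMXL3 replicate 2 (limma adjusted p = 0.0561), and the call against WT held without each library in turn.

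Per length, RAD51C was the most abundant of the 37 genes, with a mean of 60.9 TPM over the 6 libraries. Its summed TPM was 68.7 and 57.4 in WT cells, 76.5 and 64.6 in GFP cells and 47.4 and 50.7 in RBMXL3 cells, lowest in the RBMXL3 libraries as in the gene table, without passing the test (log2 change -0.51, limma adjusted p = 0.0598 against GFP, and -0.35, limma adjusted p = 0.1202 against WT). By salmon's estimates, this difference was found in a single transcript, RAD51C-214. That transcript is annotated as a retained intron of 751 bases in 5 exons with no coding sequence. It begins with 220 bases of intron that run into a coding exon, and 180 of its bases are in no other RAD51C transcript. These 220 bases (lower case) and the first 30 of the exon (capitals), at chr17:58709639-58709888 on the plus strand, tell it from the spliced forms.
RAD51C-214: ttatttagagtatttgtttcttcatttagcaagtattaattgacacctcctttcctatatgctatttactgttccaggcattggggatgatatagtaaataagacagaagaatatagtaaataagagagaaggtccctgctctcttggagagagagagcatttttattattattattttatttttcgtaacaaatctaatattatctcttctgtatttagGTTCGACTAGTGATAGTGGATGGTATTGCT

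RAD51C-214 was at 21.4 and 9.23 TPM in WT cells, 32.5 and 17.8 in GFP cells and 1.48 and 1.61 in RBMXL3 cells. Its share was 31.2% and 16.1% in WT cells, 42.5% and 27.6% in GFP cells, and 3.13% and 3.17% in RBMXL3 cells. The RBMXL3 libraries were far below every control, but the controls varied so much that the share did not pass the test against GFP (limma adjusted p = 0.137) or WT (limma adjusted p = 0.238), although limma's diffSplice called it against both (adjusted p = 0.0028 and 0.0299). That method called 1606 of all 36068 tested transcripts against GFP and 1517 against WT.

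All other RAD51C transcripts together were at 47.3 and 48.1 TPM in WT cells, 44.0 and 46.7 in GFP cells and 45.9 and 49.1 in RBMXL3 cells, a comparison made after the values were seen. The 6 libraries overlapped fully, with a difference of 0.06 against GFP (SE 0.09, limma adjusted p = 0.679) and -0.01 against WT (SE 0.09, limma adjusted p = 0.968). The fall of RAD51C in the gene table was not seen in the TPM of its other transcripts. RAD51C-214 was named for its change in share, so this remainder is no test of where the fall lay. Among the controls, RAD51C-214 ranged from 9.23 TPM in WT replicate 2 to 32.5 in GFP replicate 1. The gene's normalised reads in these libraries were 1132 and 1108, so they did not follow this transcript there.

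**Figure D2:**
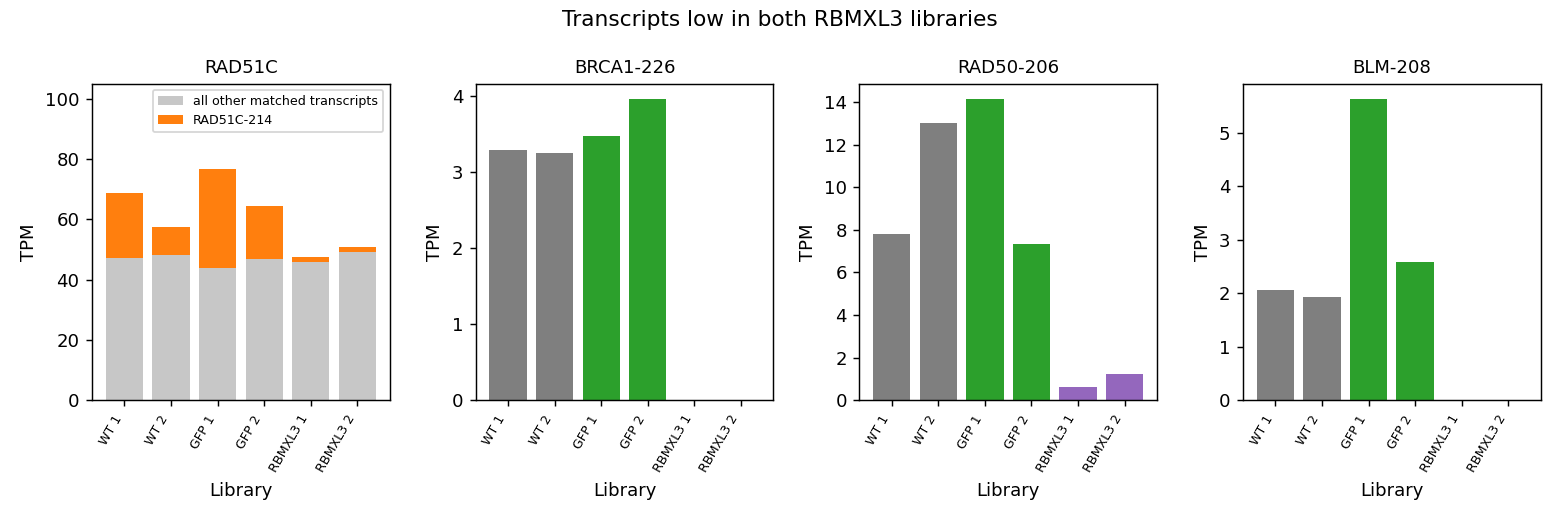
TPM (y axes, each from 0) of RAD51C and of 3 single transcripts in the 6 libraries (x axes, 1 bar per library). For RAD51C the orange part is RAD51C-214 and the grey part all other matched transcripts, which stay between 44.0 and 49.1 TPM; BRCA1-226 and BLM-208 are listed at 0 in both RBMXL3 libraries.

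The remaining 7 paralogs and partners were not called. RAD51B and RAD51D, which share a paralog complex with RAD51C, had both RBMXL3 libraries below all controls. For RAD51B these were 87.5 and 92.0 normalised reads against 101 to 116 in the controls, with changes of -0.24 against GFP (limma adjusted p = 0.276) and -0.15 against WT (limma adjusted p = 0.475). For RAD51D they were 314 and 346 against 361 to 411, with changes of -0.21 (limma adjusted p = 0.249) and -0.25 (limma adjusted p = 0.148).

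XRCC3, the partner of RAD51C in the smaller paralog complex, averaged 27.6 TPM and was the second most abundant uncalled repair gene. It had both RBMXL3 libraries above all controls, at 897 and 946 normalised reads, with changes of 0.10 and 0.23. KLC1 covers 76.7% of XRCC3's exon length on the opposite strand, and whether reads were counted by strand is not given in the sources used here. XRCC2, the annealing factor RAD52 and the motor protein RAD54L changed by 0.35, 0.04 and -0.05 against GFP and by 0.02, 0.20 and 0.03 against WT. RAD54B changed by 0.04 and -0.26, but 59.1% of its exon length is shared with FSBP on the same strand.

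Both genes of the FIGNL1 complex were called lower against WT, and C1orf112 against GFP as well. Over all tested genes, 15.3% were called lower against WT and 10.4% against GFP. C1orf112 (chr1:169662007-169854080, plus strand), also named FIRRM, binds and stabilises FIGNL1, an ATPase of late recombination. C1orf112 was at 1058 and 1075 normalised reads in WT cells, 832 and 976 in GFP cells and 676 and 699 in RBMXL3 cells. WT was highest, GFP intermediate and RBMXL3 lowest, with no overlap between the groups, and means of 1066 ± 12.2, 904 ± 102 and 688 ± 16.6 (SD, n = 2).

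C1orf112 fell by 0.62 against WT (log2 change -0.62, SE 0.11, limma adjusted p = 0.0017), a call that held in all 14 alternative analyses. It fell by 0.38 against GFP (log2 change -0.38, SE 0.11, limma adjusted p = 0.0291), and this call was lost without WT replicate 1 (limma adjusted p = 0.0521), WT replicate 2 (0.0521), GFP replicate 2 (0.0550), RBMXL3 replicate 1 (0.225) or RBMXL3 replicate 2 (0.180). In summed TPM the RBMXL3 libraries, at 19.8 and 19.2, overlapped those of GFP, at 18.1 and 20.5, while WT was at 28.3 and 26.8. SCYL3 lies over 21.7% of the exon length of C1orf112 on the opposite strand.

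FIGNL1 was at 1932 and 2029 normalised reads in WT cells, 1698 and 1735 in GFP cells and 1495 and 1579 in RBMXL3 cells, in the same order as C1orf112 and again without overlap. It fell by 0.36 against WT (log2 change -0.36, SE 0.10, limma adjusted p = 0.0138) and differed by -0.16 from GFP (limma adjusted p = 0.260). The call was lost without either WT library (limma adjusted p = 0.0610 and 0.0822) or either RBMXL3 library (0.187 and 0.1097). Summed TPM gave the same order of group means (± SD, n = 2), with WT at 44.9 ± 1.48, GFP at 38.9 ± 0.0889 and RBMXL3 at 35.3 ± 2.52.

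**Figure D3:**
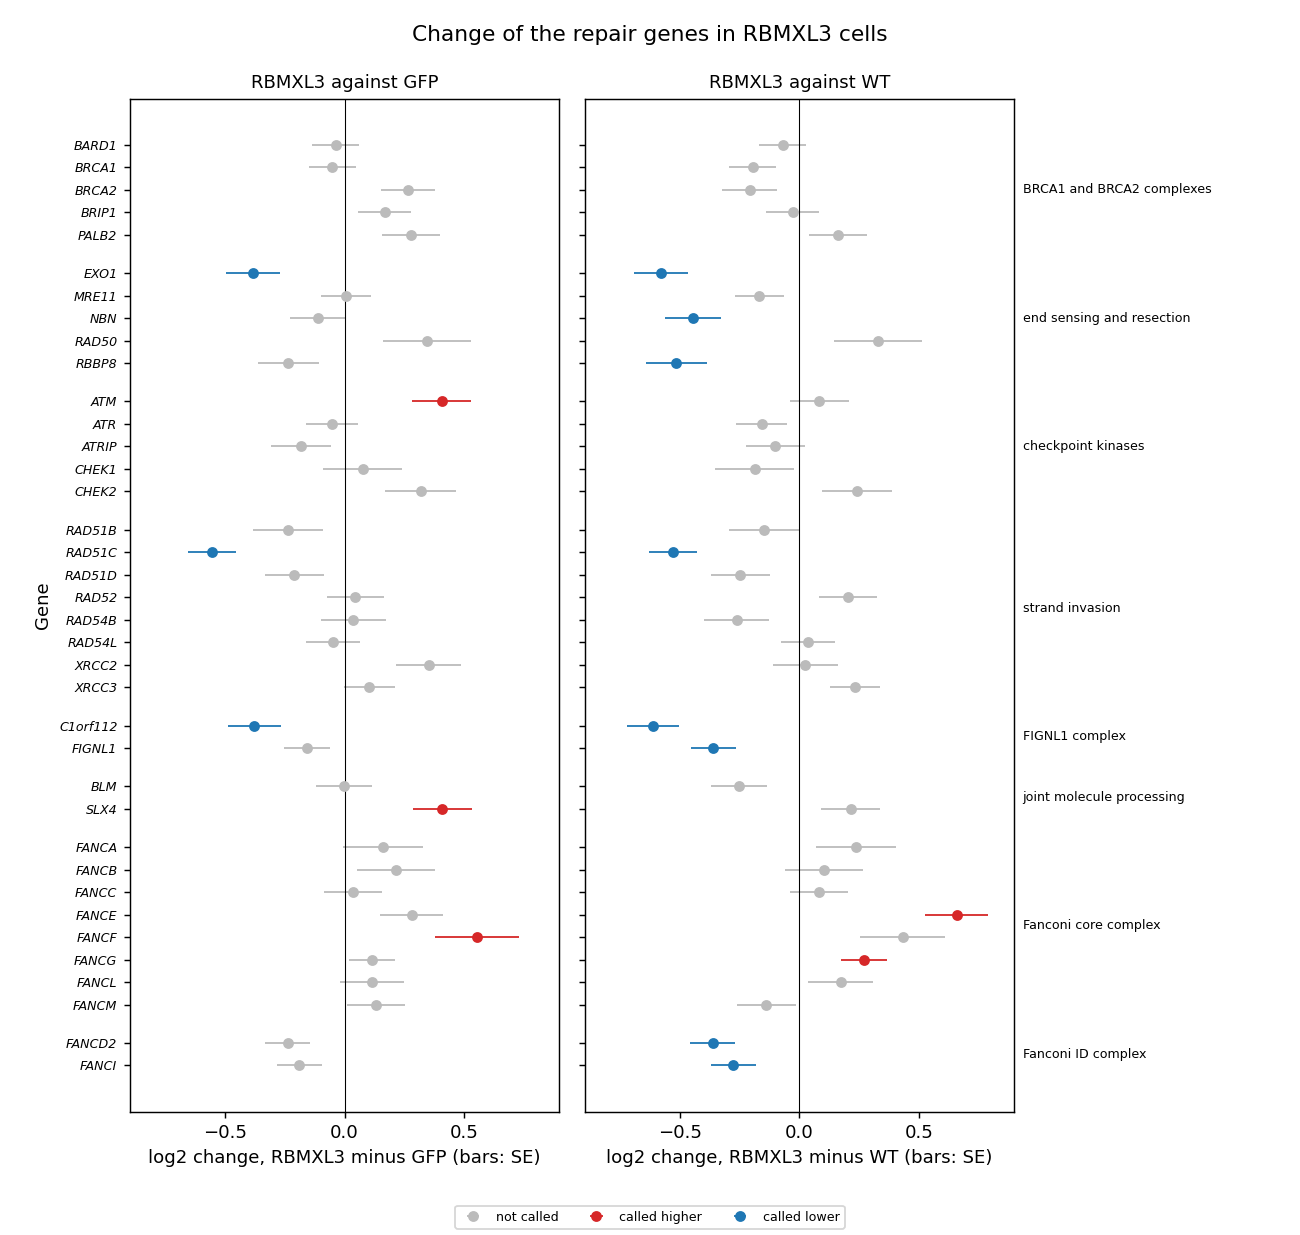
Log2 change of each repair gene in RBMXL3 cells against GFP (left) and against WT (right), with bars of 1 SE from the limma fit of 2 libraries a group. Red and blue points were called higher or lower; the 3 genes blue on both sides are EXO1, RAD51C and C1orf112, and no gene is red on both.

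Of the genes that process joined molecules, SLX4, the scaffold of structure-specific nucleases, was at 418 and 370 normalised reads in WT cells, 352 and 329 in GFP cells and 485 and 436 in RBMXL3 cells. Both RBMXL3 libraries were above all controls. SLX4 rose by 0.41 against GFP (SE 0.12, limma adjusted p = 0.0344) and differed by 0.21 from WT (limma adjusted p = 0.208), and the call was lost without GFP replicate 2 (limma adjusted p = 0.0536), RBMXL3 replicate 1 (0.297) or RBMXL3 replicate 2 (0.138).

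BLM, the helicase that dissolves double Holliday junctions, did not differ from GFP beyond its spread in the gene table, where GFP had 639 and 744 normalised reads, WT 881 and 774, and RBMXL3 707 and 671. In the transcript table its sum was lowest in RBMXL3, at 7.11 and 7.71 TPM, while WT had 13.0 and 11.8 and GFP 14.3 and 14.1. The summed TPM of BLM was called lower against GFP (log2 change -0.85, limma adjusted p = 0.0200) and against WT (log2 change -0.67, limma adjusted p = 0.0206), and it was the only repair gene so called against both. The coding transcript BLM-208, of 20 exons and picked out after its values were seen, was at 2.06 and 1.94 TPM in WT and 5.64 and 2.59 in GFP and was listed at 0 in both RBMXL3 libraries, without passing the test on shares (limma adjusted p = 0.0987 and 0.171), while diffSplice called it against GFP (adjusted p = 0.0381). Against GFP, diffSplice called 1606 of all 36068 tested transcripts. The other BLM transcripts together were at 10.97 and 9.84 TPM in WT cells, 8.63 and 11.5 in GFP cells, and 7.11 and 7.71 in RBMXL3 cells, again lowest in RBMXL3.

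The Fanconi core complex is the ubiquitin ligase of the pathway. All 8 of its genes had a positive change against GFP, from 0.03 to 0.56, and 7 of 8 had one against WT. The median change over all genes was 0.00 against GFP and -0.01 against WT. Called were 1 of 8 against GFP (12.5%) and 2 of 8 against WT (25%), where 20.9% and 29.9% of all tested genes were called. In summed TPM against GFP, FANCA had a negative change (-0.24), while the other core complex genes had positive ones. The median of all genes there was 0.13, and FANCM, at 0.08, lay below it. FANCE, the subunit that contacts FANCD2, was at 179 and 193 normalised reads in WT cells, 251 and 247 in GFP cells and 288 and 328 in RBMXL3 cells. The groups did not overlap, with GFP between WT and RBMXL3. FANCE rose by 0.66 against WT (SE 0.13, limma adjusted p = 0.0031) and differed by 0.28 from GFP (limma adjusted p = 0.148), and the call against WT was lost without RBMXL3 replicate 2 (limma adjusted p = 0.0635). Its summed TPM was called higher against WT as well (log2 change 0.71, limma adjusted p = 0.0347).

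FANCF, an adaptor of the core complex encoded by a single exon, was at 363 and 336 normalised reads in WT cells, 249 and 407 in GFP cells and 494 and 465 in RBMXL3 cells. Both RBMXL3 libraries were above all controls, but the GFP libraries differed more from each other than the group means did. FANCF rose by 0.56 against GFP (SE 0.18, limma adjusted p = 0.0413), and without GFP replicate 1 the difference was 0.23 (limma adjusted p = 0.199). The call was also lost without WT replicate 1 (limma adjusted p = 0.0808), WT replicate 2 (0.0809), RBMXL3 replicate 1 (0.180) or RBMXL3 replicate 2 (0.128), and in edgeR (adjusted p = 0.0538).

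FANCG, another adaptor, was at 1202 and 1232 normalised reads in WT cells, 1373 and 1344 in GFP cells and 1479 and 1466 in RBMXL3 cells, without overlap between the groups. It rose by 0.27 against WT (SE 0.10, limma adjusted p = 0.0480) and differed by 0.11 from GFP (limma adjusted p = 0.423). The FANCG call was lost without either WT library (limma adjusted p = 0.185 and 0.115) or either RBMXL3 library (0.290 and 0.279), and in DESeq2 (adjusted p = 0.0567). FANCA, FANCB, FANCC, the ligase subunit FANCL and the translocase FANCM were not called and changed by 0.03 to 0.22 against GFP and by -0.14 to 0.24 against WT. ZNF276 lies over 23.6% of FANCA's exon length and VRK2 over 18.7% of FANCL's, both on the opposite strand.

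FANCD2 and FANCI, the pair that receives ubiquitin from the core complex, had negative changes against both controls. Both were called lower against WT, where 15.3% of all tested genes were called lower. FANCD2 was at 2966 and 2862 normalised reads in WT cells, 2795 and 2546 in GFP cells and 2230 and 2286 in RBMXL3 cells, and FANCI at 2304 and 2284, 2084 and 2232, and 1842 and 1934. For both genes the RBMXL3 libraries were below all controls. FANCD2 fell by 0.36 against WT (log2 change -0.36, SE 0.10, limma adjusted p = 0.0132) and FANCI by 0.28 (log2 change -0.28, SE 0.09, limma adjusted p = 0.0426). Against GFP they differed by -0.24 (limma adjusted p = 0.0942) and -0.19 (limma adjusted p = 0.174), and summed TPM changed against WT by -0.01 for FANCD2 and -0.04 for FANCI. Both calls were lost when either WT library or either RBMXL3 library was left out, with limma adjusted p from 0.0502 to 0.156 for FANCD2 and from 0.122 to 0.324 for FANCI, and FANCI also in DESeq2 (adjusted p = 0.0758).

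Among FANCD2 transcripts, FANCD2-209 had a smaller and FANCD2-204 a larger mean share in RBMXL3 cells than in either control. FANCD2-209 is a non-coding transcript of 449 bases whose junction at chr3:10093323-10095200 leaves out 1 exon of 75 bases. FANCD2-204 is annotated as a target of nonsense-mediated decay, has 27 exons, and leaves out 1 exon of 94 bases at chr3:10088950-10092181; both exons belong to the coding transcript FANCD2-201. On the plus strand, the 30 bases before each of these junctions (lower case) and after it (capitals) read as follows.
FANCD2-209: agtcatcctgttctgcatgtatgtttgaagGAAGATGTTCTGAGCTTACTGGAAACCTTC
FANCD2-204: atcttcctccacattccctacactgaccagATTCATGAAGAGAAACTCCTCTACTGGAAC

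In TPM, FANCD2-209 was at 15.4 and 10.5 in WT cells, 4.76 and 7.09 in GFP cells, and 5.55 and 7.16 in RBMXL3 cells, so its abundance overlapped between GFP and RBMXL3 (change of 0.10 on log2(TPM + 1), limma adjusted p = 0.885). Its share was 77.6% and 68.9% in WT cells, 69.2% and 52.1% in GFP cells, and 32.6% and 41.2% in RBMXL3 cells. FANCD2-204 was listed at 0 in both WT libraries and 1 GFP library, had 8.51% in GFP replicate 2, and had 28.9% and 20.2% in RBMXL3. Neither passed the test, with limma adjusted p of 0.301 and 0.274 against GFP and of 0.177 and 0.182 against WT. The TPM times length of the matched FANCD2 transcripts per read was 0.18 times that of the median repair gene, so these shares too are of an incomplete set.

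Of 482 repair gene transcripts matched to GENCODE 29, 123 transcripts of 28 genes were tested for their share. Against GFP 1 was called, where 0.676% of all tested transcripts were, and against WT 2, where 0.693% were. Between the controls limma called 0, where 0.00277% of all were called, with 6 at an unadjusted p under 0.05 and 0 called by diffSplice. In RBMXL3 cells, diffSplice called 6 of the 123 against GFP and 6 against WT. Of all 36068 tested transcripts, it called 1606 against GFP, 1517 against WT and 161 between the controls. The transcripts at 0 TPM in both RBMXL3 libraries and at least 1 TPM in all controls were BRCA1-226 and BLM-208, 2 of 123, where this held for 0.862% of all tested transcripts. The share of 23 of the 123 moved the same way against both controls by at least 10 percentage points, and 1 of these was called against both. No transcript could be tested for BRIP1, XRCC2, ATM, ATR, FANCB, FANCE, FANCF, FANCM or SLX4.

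The gene table and the transcript table were set side by side for all 37 genes. Of the 6 genes called against GFP, 4 had the same sign in summed TPM and none was called there by limma, whose only call was BLM, where 6.93% of genes were called in summed TPM. Of the 10 called against WT, 10 had the same sign and 3 were called (C1orf112, NBN and FANCE), beside RAD50 and BLM, where 11.5% were called. Summed TPM shifts the median of all genes by 0.13 against GFP and 0.03 against WT, and relative to that shift the changes of EXO1 (0.02) and C1orf112 (0.01) against GFP were below the median. Matched transcripts also covered little of BRIP1, ATM, FANCB and FANCM, at 0.0325, 0.137, 0.203 and 0.436 times the TPM times length per read of the median repair gene.

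**Figure D4:**
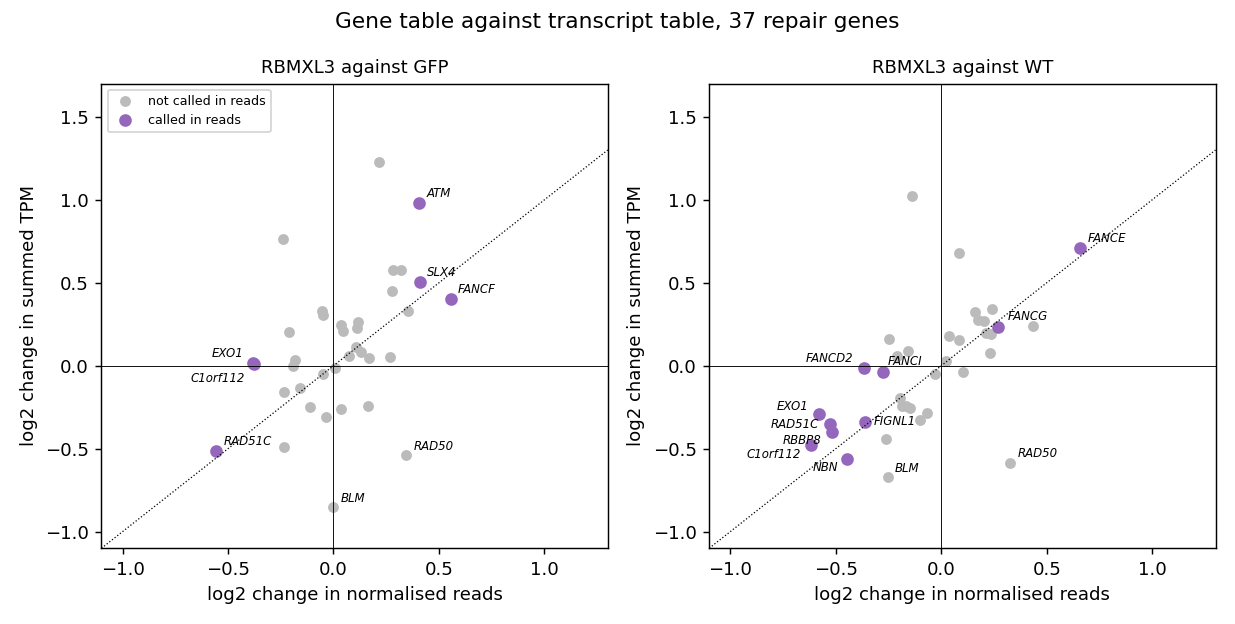
Log2 change in summed TPM (y axis) against log2 change in normalised reads (x axis) for the 37 genes, RBMXL3 against GFP (left) and WT (right), with the dotted line at equal change. RAD51C lies near the line against GFP and FANCE against WT, EXO1 and C1orf112 sit at 0.02 and 0.01 in TPM against GFP, and RAD50 has opposite signs in the tables.

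Other genes of the pathway were taken from a list of 59, of which 55 were tested. Against GFP, 2 were called higher and 6 lower, and against WT 5 higher and 6 lower, with medians of -0.04 and -0.05. These calls were 14.5% and 20% of the list, where 20.9% and 29.9% of all tested genes were called. Called against both controls were 1 higher, FAAP20, a core complex partner, and 2 lower, RPA1, a subunit of the single-strand binding protein RPA, and RFWD3, a ubiquitin ligase that acts on RPA; these 3 were picked out after their values were seen.

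Genes of end joining, the competing pathway, were called higher for 2 of 10 against GFP with 0 lower, and 3 higher and 3 lower against WT. These calls were 20% and 60% of the list, where 20.9% and 29.9% of all tested genes were called. The 2 called against both controls were PAXX and POLL, both higher and picked out after their values were seen. Over the 10 genes, 7 changes were positive and 3 negative against GFP, and 4 positive and 6 negative against WT.

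Many recombination genes are transcribed in S phase, and a list of 32 S phase and proliferation genes was read beside them. Of these, 1 was called higher and 8 lower against GFP, with a median of -0.17, and 3 higher and 9 lower against WT, with a median of -0.20. Over all tested genes, 10.5% were called higher and 10.4% lower against GFP, and 14.6% and 15.3% against WT. Against both controls 6 of 32 were called lower (18.75%) and 0 higher, where 6.86% of all tested genes were called lower and 6.88% higher. Their summed reads were 164470 to 176610 in WT, 166360 to 172740 in GFP and 149500 to 149530 in RBMXL3, and those of the 37 repair genes 31847 to 32146, 28497 to 30117 and 28252 to 28318. The part of S phase genes in the changes of RAD51C, C1orf112, EXO1, FANCD2 and FANCI was not tested.

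The promoters of 35 of the 37 genes were found in RefSeq (GRCh38.p14), as 49 windows of 250 bases before a start site, and were searched on both strands for 4 short motifs. An E2F site (TTTCCCGC or TTTGGCGC) was in 2.04% of these windows and 1.93% of all 35116, and the CHR element TTTGAA in 6.12% and 13.3%. The CCAAT box (CCAAT) was in 38.8% against 32.0%, and the GC box (GGGCGG), which can share bases with an E2F site, in 57.1% against 42.6%. Of the genes lower against both controls, C1orf112 and EXO1 held a GC box and RAD51C none of the 4. A match is a run of letters and no evidence of binding.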

How the data were processed

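Polyadenylated RNA of 6 TCam-2 libraries was made into stranded libraries, per the labels' protocols. The submitters' processing notes name Trim Galore 0.6.10, STAR 2.7.11a, DESeq2, Salmon 1.10.2 and GRCh38 (hg38); the read counter, its strand setting and the annotation are not given in the sources used here. The deposited gene table holds a normalised signal, that is, reads scaled by the authors with a size factor for each library: whole reads came out for 100% of 145320 nonzero values (tolerance 0.01). The deposited transcript table holds TPM for 251955 transcripts, made by the authors with salmon per the submitters' processing notes; it keeps no depth. Of these transcripts 80.0% matched GENCODE 29, with 94.7% to 95.0% of the TPM, and only these enter sums and shares. The number of columns of no sample was 0.

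Gene values were divided by 23.9, which sets the mean column total to that of CPM; the planned test had assumed CPM. The filter asked for a value of 1 or more in 2 or more libraries. The log2(value + 1), which understates changes of low genes, was fitted in R 4.3.3 with limma 3.58.1, all 6 libraries together and an intensity trend, two-sided, with Benjamini-Hochberg adjustment over 14292 genes and no covariate. Shares were fitted likewise over 36068 transcripts of 8827 genes, each with 1 TPM or more in 2 or more libraries. edgeR 4.0.16 and DESeq2 1.42.0 on the recovered reads were alternatives. Scripts were tested on simulated data. Means ± SD are over 2 libraries, and intervals and floors of 3 reads cover counting error only.

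Genes called against both controls or between controls are named with all values, those called against 1 control with their change, and the 2 most abundant uncalled ones. Transcripts named are 5, ranked by the lesser of their changes in share against the 2 controls, from genes with 2 TPM or more, and ATRIP-208 and BLM-208 were added after their values were seen. The 37 genes, the lists and these rules were chosen with earlier results of these data known. A gene of the wider pathway list is not reported here. Same-numbered replicates did not deviate together (correlations of -0.156, 0.0337 and -0.0941), so no pairing was used.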

Additional observations from a re-analysis of the deposited data

How the results depend on the processing

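Over all alternatives, 255 values of named genes and transcripts kept their direction and their side of the threshold, 97 lost a call, 4 gained one and 5 changed sign. The changes of sign were C1orf112 (0.012) and EXO1 (0.0189) against GFP and BRCA2 in GFP against WT (0.0014) in summed TPM, RAD51C against GFP (0.0647) in summed TPM without RAD51C-214, and FANCD2-209 against GFP in transcript abundance (0.10 in log2(TPM + 1)). Counts of called repair genes against GFP, against WT, between the controls and against both were 6, 10, 1 and 3. They were 1, 6, 0 and 1 with no filter, 1, 5, 0 and 1 in summed TPM, and 3 against GFP and 0 between the controls with quantile normalization. With 1 library left out they ranged from 0 to 7, 2 to 13, 0 to 8 and 0 to 5; a group left with 1 library is assumed to vary like the others. Called transcripts, 1 against GFP, 2 against WT and 1 against both, were 0 with any 1 library left out (with 14 to 21 at an unadjusted p under 0.05 in limma against GFP and 14 to 23 against WT), 0 against WT and 0 against both with untransformed shares, 6, 6 and 4 in diffSplice, and 1 against WT in transcript abundance, added after the data were seen. With the replicate number as a block, BRCA2 lost its call between the controls (0 called), ATM lost its call against GFP (limma adjusted p = 0.0588), FANCI (0.072) and FANCG (0.0848) lost theirs against WT, and called transcripts were 0, 0 and 0, while repair gene counts were 5 against GFP, 8 against WT and 3 against both. WT and GFP deviated in opposite senses, and with crossed numbers, added after the data were seen, 1049 genes were called between the controls in place of 524, and 1 repair gene. The cause of these changes was not tested. TPM carries no depth, so no counting limit is known for transcripts. The diffSplice calls over all 36068 tested transcripts were 1606 against GFP and 1517 against WT.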
